A study of Arabidopsis thaliana with 11 samples.

Results

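Among the 7 arrays labelled wild type in a study of the NGATHA genes of Arabidopsis thaliana, 3 (arrays 5, 6 and 7) carried a high signal for NGA1 and 4 (arrays 1 to 4) a low one. The arrays were selected on that signal: the NGA1 probe set lay above 10 on the log2 scale on the former and below 6 on the latter. The series holds 11 arrays in all. All 7 wild-type samples were inflorescences of ecotype Ler, taken 30 days after sowing, with flowers of stage 12 and younger, and their labels differ only in that arrays 2, 3 and 4 bear a note of long days, while for arrays 1, 5, 6 and 7 no day length is given. The other 4 arrays, of the same ecotype, age and tissue, were 2 of the quadruple mutant of the alleles nga1-1, nga2-1, nga3-1 and nga4-1 and 2 of plants carrying 35S:miR-NGA, an artificial microRNA against NGA1 to NGA4 driven by the viral 35S promoter, which is active in most cell types. Because NGA1 on arrays 1 to 4 goes against what a wild-type label would lead a reader to look for, "wild type" below means only the label.

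NGATHA proteins are transcription factors with a B3 DNA-binding domain. The family is known for acting redundantly in the apical gynoecium: plants that lose all of its activity form no proper style or stigma. NGA1 is transcribed in young floral organs, the upper part of the gynoecium among them, so that a wild-type inflorescence is a tissue in which its transcript is known to be present.

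NGA1 (AT2G46870, chromosome 2) measured 10.50, 11.003 and 10.51 on wild-type arrays 5, 6 and 7. On wild-type arrays 1, 2, 3 and 4 it measured 5.65, 5.60, 5.99 and 5.85. The means were 10.67 ± 0.29 (SD, n = 3) and 5.77 ± 0.18 (SD, n = 4), a difference of 4.90 on the log2 scale, which is 29.8-fold, with a gap of 4.51 between the lowest of the former and the highest of the latter. These values chose the arrays and are given as a description, with no test. The quadruple mutant arrays lay between the wild-type sets, at 6.95 and 6.50, and the 35S:miR-NGA arrays lay below all 7 wild-type arrays, at 5.02 and 4.88. Wild-type arrays 1 to 4 were therefore lower for NGA1 than both arrays of the quadruple mutant. No source used here gives the position of the nga1-1 lesion on the probed transcript, so the NGA1 signal of the quadruple mutant is no check of that allele.

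**Figure D1:**
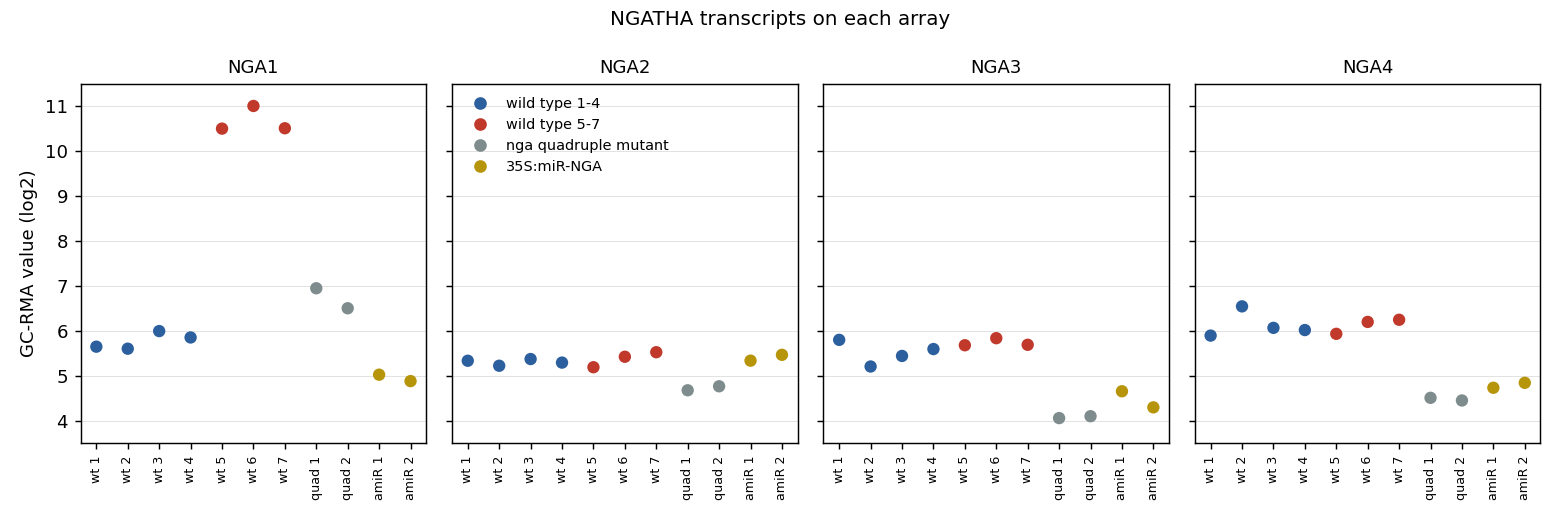
GC-RMA value (log2, vertical axis) of the 4 NGATHA genes on each of the 11 arrays (horizontal axis), each point being 1 array. NGA1 lies at 10.50 to 11.003 on wild-type arrays 5 to 7 and at 5.60 to 5.99 on wild-type arrays 1 to 4, while NGA2, NGA3 and NGA4 overlap between the same arrays.

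The 3 related genes did not follow NGA1. NGA2 (AT3G61970) measured 5.19, 5.42 and 5.52 on wild-type arrays 5 to 7 and 5.33, 5.22, 5.37 and 5.29 on arrays 1 to 4, a difference of 0.07. NGA3 (AT1G01030) measured 5.68, 5.84 and 5.69 against 5.80, 5.21, 5.44 and 5.59, a difference of 0.22. For NGA4 (AT4G01500) the values were 5.93, 6.198 and 6.25 against 5.89, 6.54, 6.07 and 6.02, with means of 6.13 ± 0.17 (SD, n = 3) and 6.13 ± 0.29 (SD, n = 4). The sets overlapped for all 3 genes. NGA3 and NGA4, with 4.06 to 4.66 and 4.45 to 4.84 on the 4 nga arrays, were lower there than on every wild-type array of either set. NGA2 measured 4.68 and 4.77 in the quadruple mutant and 5.34 and 5.47 in 35S:miR-NGA, the latter within the range of the wild-type arrays. A relative of the family on the same list, the B3-domain gene AT3G11580, measured 5.20 to 5.75 on arrays 5 to 7 and 5.12 to 5.95 on arrays 1 to 4.

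NGA1, whose signal chose the arrays, had by far the largest difference of the division. Of 17801 probe sets kept, 21 were separated, meaning that the sets did not overlap and their means differed at least 2-fold, which is 1 on the log2 scale. This was 0.118% of the probe sets kept, and since the arrays were divided by a value from this same contrast nothing is read from that share. Higher on arrays 5 to 7 were 13 probe sets (0.073%) and lower were 8 (0.0449%). With each array centred on its own median the count was 20, but its split was 8 higher and 12 lower, so the data give no steady excess in either direction. After NGA1 the largest difference among separated probe sets was 1.73 and the second largest gap 1.18. The median difference over all probe sets kept was 0.012, the median size 0.158 and the 99th percentile of sizes 0.763, where the median SD within the sets was 0.231. The division held 99.4% of the variance of NGA1 among the 7 arrays and 20.5% of that of all probe sets together. The share of NGA1 follows from dividing the arrays by it. The share of all probe sets was set against no other division, so nothing is read from either. Without a limit on size, 1344 probe sets did not overlap (7.55%), 482 higher (2.71%) and 862 lower (4.84%). With a limit of 4-fold only NGA1 was left, which the rule itself places past that limit. Leaving out 1 array moved the count of separated probe sets to 42 (array 2), 43 (array 3), 65 (array 4), 32 (array 5) and 95 (array 7), and to 19 and 27 without arrays 1 and 6. Sets with fewer arrays meet the rule of no overlap more easily.

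**Figure D2:**
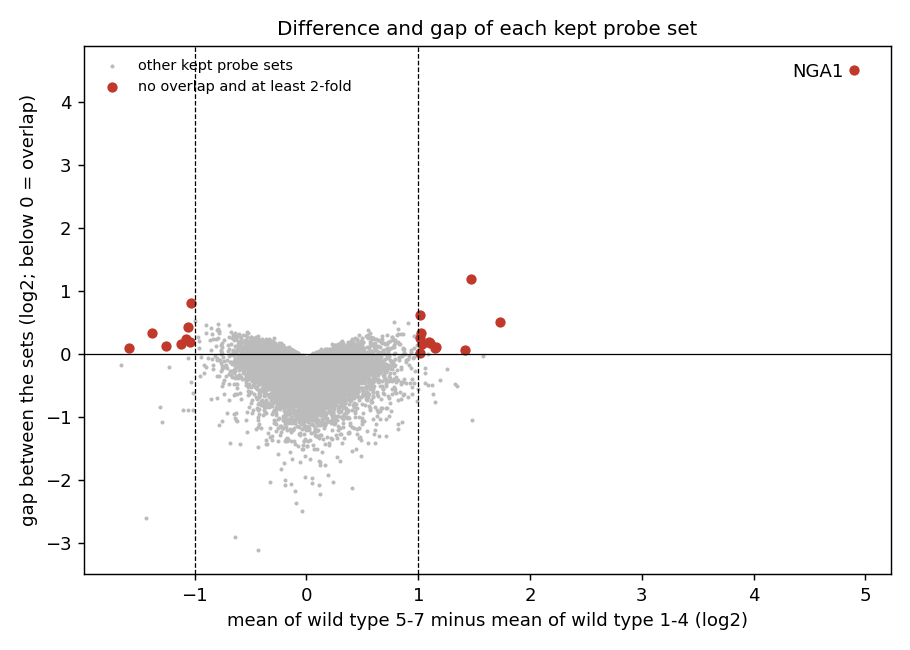
Mean of wild-type arrays 5 to 7 minus mean of wild-type arrays 1 to 4 (log2, horizontal axis) against the gap between the sets (log2, vertical axis, below 0 where they overlap), each point being 1 of 17801 probe sets. NGA1 stands alone at a difference of 4.90 and a gap of 4.51, and the other 20 separated probe sets (red) lie at differences of at most 1.73 in size.

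Annotation gave a single gene for 9 of the 21 separated probe sets, several genes for 2 and none for 10. Beside NGA1, the gene with a symbol was THI2.1 (AT1G72260), a thionin, that is, a small antimicrobial peptide whose gene jasmonate induces. It measured 8.11, 7.89 and 8.80 on arrays 5 to 7 and 6.75, 6.85, 7.32 and 7.71 on arrays 1 to 4, with means of 8.27 ± 0.48 (SD, n = 3) and 7.16 ± 0.45 (SD, n = 4) and a gap of 0.17. On the nga arrays it reached 8.81 to 10.81, at or above the highest wild-type array. Its difference of 1.11 was 0.97 without array 1, 0.84 without array 7 and 0.75 against wild-type arrays 3 and 4 alone, below the 2-fold limit in each case.

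The other separated genes are known here by locus. AT5G61605 had the largest difference after NGA1: it measured 8.12, 7.88 and 7.98 on arrays 5 to 7, and 5.68, 7.38, 6.24 and 5.74 on arrays 1 to 4. It was higher still on most nga arrays, at 11.05 and 10.20 in the quadruple mutant and 9.92 and 7.93 in 35S:miR-NGA, so arrays 5 to 7 lay between arrays 1 to 4 and 3 of the 4 nga arrays. AT5G23970 differed by 1.42 and AT4G23680 by 1.15, but for both array 7 sat close to arrays 1 to 4. For AT4G23680 it measured 9.87, against 11.13 and 11.24 on arrays 5 and 6 and 9.40 to 9.78 on arrays 1 to 4, and the sets were no longer separated after median centring or quantile normalization, or without array 5 or 6. AT4G27435 was 1.02 higher, with 5.80 to 6.39 against 4.83 to 5.47, and that difference was 0.82 against arrays 3 and 4 alone.

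Lower on arrays 5 to 7 was AT3G16780, at 8.32, 8.23 and 7.77 against 8.66, 9.34, 9.89 and 10.07 on arrays 1 to 4. Its difference of -1.38 became -1.87 against arrays 3 and 4 alone. Here the nga arrays, at 9.89 to 10.17, lay with arrays 3 and 4. AT2G32150 differed by -1.07, with 9.06 to 9.34 against 9.58 to 11.01, and by -0.83 and -0.99 without arrays 1 and 3. AT1G49500 differed by -1.12. It measured 6.69 on array 7 and 8.28 and 8.40 on arrays 5 and 6, next to 8.55 on array 4, so array 7 lay well below the other arrays of its set. Just outside the 2-fold limit were HAT2, an HD-ZIP transcription factor that auxin induces, with 7.93 to 8.22 against 8.75 to 9.69, and AT2G40460, with 6.47 to 6.92 against 4.73 to 6.17.

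The pattern with the second largest gap belonged to a probe set that the annotation does not list, 262113_at. It measured 7.10, 7.40 and 7.52 on arrays 5 to 7 and 5.92, 5.92, 5.75 and 5.90 on arrays 1 to 4, and within each set it varied little, with SDs of 0.22 and 0.08. On the nga arrays it measured 6.27, 5.78, 5.43 and 5.27. Like NGA1, it was low on wild-type arrays 1 to 4 and on the 4 nga arrays and high on wild-type arrays 5 to 7. Probe set 245866_s_at, which matches more than a single gene, had 5.68 to 5.91 on arrays 5 to 7, 4.46 to 5.06 on arrays 1 to 4 and 4.49 to 5.32 on the nga arrays.

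The nga arrays had no part in choosing the separated probe sets and were placed against them. For 17 of the 21 the mean of the 4 nga arrays lay nearer to wild-type arrays 5 to 7, namely 10 of the 13 higher and 7 of the 8 lower. The exceptions were NGA1, 262113_at, 245866_s_at and AT3G16780. With NGA1 left out, quadruple mutant arrays 1 and 2 lay nearer to arrays 5 to 7 for 18 and 17 of 20 probe sets, and 35S:miR-NGA arrays 1 and 2 for 16 and 11 of 20. Arrays 5 to 7, those with the high NGA1 signal, were thus not the wild-type arrays farthest from the nga arrays in these transcripts. The same share over all probe sets kept was not counted, so the counts are not read as particular to these transcripts. Over all probe sets kept, quadruple mutant array 2 correlated at 0.982, 0.980 and 0.970 with arrays 5, 6 and 7 and at 0.944 to 0.974 with arrays 1 to 4. For 35S:miR-NGA array 2 the values were 0.978 to 0.982 with arrays 5 to 7 and 0.985 with arrays 3 and 4. Quadruple mutant array 1 had 0.954, 0.951 and 0.939 with arrays 5, 6 and 7 and 0.924 to 0.942 with arrays 1 to 4. On 35S:miR-NGA array 1 these were 0.981, 0.979 and 0.974 and 0.943 to 0.977. With each of the 4 nga arrays, array 7 correlated less than array 3. The heat map of the separated probe sets shows the same colours on the nga arrays as on arrays 5 to 7 in most rows.

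**Figure D3:**
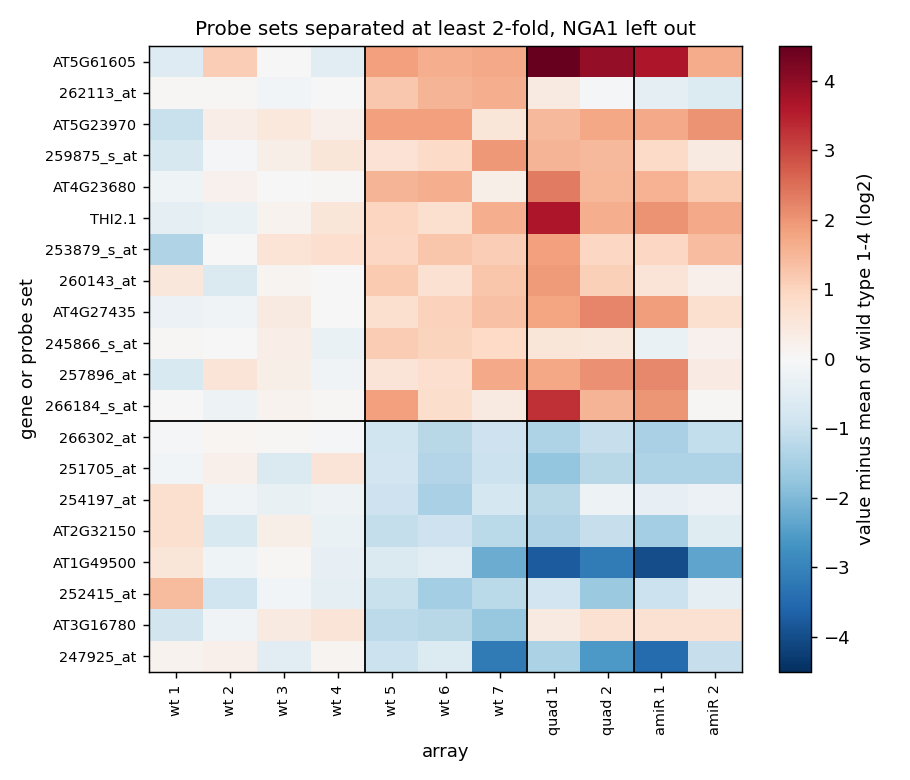
Value of each separated probe set other than NGA1 (20 rows) on each of the 11 arrays (columns), as the log2 difference from the mean of wild-type arrays 1 to 4. Vertical lines part the array sets and the horizontal line parts the 12 rows higher on arrays 5 to 7 from the 8 lower; in AT5G61605 and THI2.1 the nga arrays are mostly more extreme than arrays 5 to 7, and in AT3G16780 they are on the other side.

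Wild-type arrays 1 and 2 stood apart in some of the RNA quality measures. The actin control signal was 2.05 and 2.103 higher on the log2 scale at its 3-prime end than at its 5-prime end there, as on quadruple mutant array 1 (2.11), and 1.09 to 1.31 on the other 8 arrays. The GAPDH difference was 1.05 and 1.29, against 0.084 to 0.481 on wild-type arrays 3 to 7, and 19.2% of probe sets lay below 4, against 23.5% to 24.1%. Other control sets did not show this: the ubiquitin difference was 1.298 and 1.35 on arrays 1 and 2 and 1.17 to 1.38 on arrays 3 to 7, a second GAPDH set gave -0.126 and 0.061 against -0.0037 to 0.169, and an older actin set was lower on arrays 1 and 2, at 3.45 and 3.74 against 4.05 to 4.34. Without both arrays, 70 probe sets were separated between arrays 5 to 7 and arrays 3 and 4 (0.393%), 36 higher and 34 lower, and 11 of these were among the 21. With fewer arrays the rule of no overlap is easier to meet, so the 70 is not on the same footing as the 21. The NGA1 difference was then 4.75. NGA1 itself measured 5.65 and 5.60 on arrays 1 and 2 and 5.99 and 5.85 on arrays 3 and 4. Its low signal occurred on arrays with and without the high 3-prime difference, and any part of RNA quality in it was not tested.

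Arrays of different sets were often closer to each other than arrays of the same set. The counts of probe sets that differed at least 2-fold were 71 between arrays 5 and 6 and 69 between arrays 3 and 4, the closest pairs. Array 7, however, differed from arrays 5 and 6 in 488 and 421 probe sets, and from arrays 3 and 4 of the other set in 218 and 181. Array 3 differed from array 6 in 128, and from arrays 1 and 2 of its own set in 826 and 790. The mean Pearson correlation over the 17801 probe sets, which are not independent replicates, was 0.984 within arrays 5 to 7, 0.970 within arrays 1 to 4 and 0.974 between the sets. Without arrays 1 and 2 it was 0.986 between the sets, and the pair of arrays 3 and 4 had 0.992. The first principal component, with 48.0% of the variance, set arrays 1 and 2 (weights -0.63 and -0.55) against the other 5 (0.13 to 0.33). The second, with 20.4%, set arrays 5 and 6 (-0.49 and -0.46) against arrays 7 and 1 (0.43 and 0.40).

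**Figure D4:**
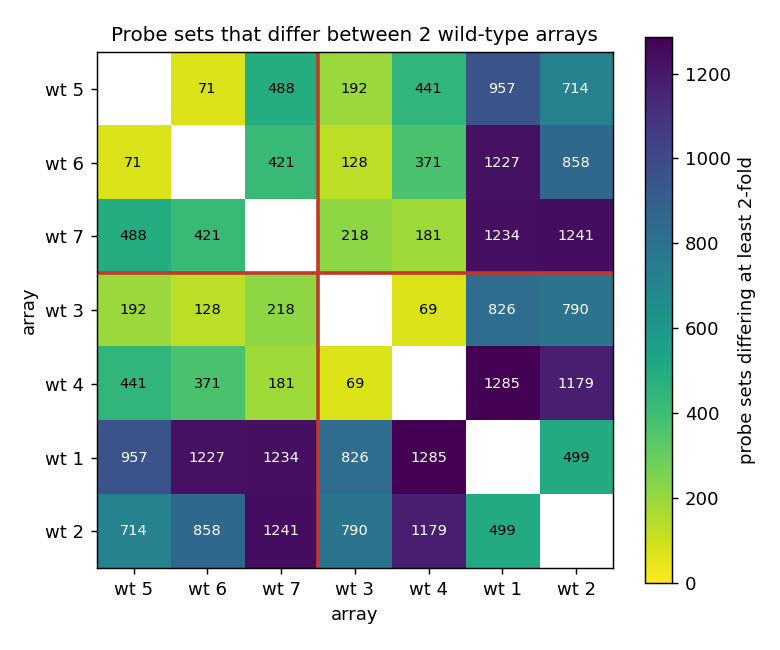
Number of probe sets, of 17801, that differed at least 2-fold between each pair of wild-type arrays (rows and columns, colour and figures); red lines part arrays 5 to 7 from arrays 1 to 4. The pairs 5 and 6 (71) and 3 and 4 (69) are closest, array 7 is nearer to arrays 3 and 4 than to arrays 5 and 6, and arrays 1 and 2 are far from the others.

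To describe where each array lies in transcripts other than NGA1, each was left out and probe sets separated at least 2-fold among the other 6 were taken. NGA1 was dropped, and the array left out was placed. The probe sets are not independent and the same share over all probe sets was not counted, so no test of the division is drawn from these counts. Array 5 lay nearer to the mean of its own set for 24 of 31 probe sets (77.4%) and array 6 for 18 of 26 (69.2%). These 2 arrays were a close pair, with 71 probe sets differing 2-fold, and each helped choose the probe sets that placed the other. Array 7 lay nearer to the mean of its own set for 21 of 94 (22.3%). Arrays 5 and 6 alone stood for that set in choosing these 94, which favours values particular to this close pair. No conclusion on array 7 is therefore drawn from that share. Of the other set, array 1 lay nearer to arrays 5 to 7 for 7 of 18 (38.9%), array 2 for 24 of 41 (58.5%), array 3 for 23 of 42 (54.8%) and array 4 for 47 of 64 (73.4%). Among the 69 probe sets other than NGA1 that separated arrays 5 to 7 from arrays 3 and 4, array 1 lay nearer to arrays 5 to 7 for 43 (62.3%) and array 2 for 55 (79.7%). Arrays 1 and 2 shared the low NGA1 signal of arrays 3 and 4, while among these 69 chosen probe sets array 2, and less clearly array 1, lay more often with arrays 5 to 7. Arrays 3 and 4 were likewise a close pair, and choosing by them favours values particular to that pair. These shares therefore do not decide where arrays 1 and 2 belong.

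The 2 kept loci near NGA1 did not share its difference, and those directly beside it had no probe set assigned in the annotation used. Of the 10 loci next to it in the RefSeq order, 5 on each side, 3 had a probe set of a single gene and 7 had none. That annotation gave no gene for 7415 of the 17801 probe sets kept. Whether any of these measures 1 of the 7 loci is not known. The 2 that were kept, AT2G46900 and AT2G46910, lie at places 4 and 5 on the same side. AT2G46900 measured 8.21 to 8.56 on arrays 5 to 7 and 8.33 to 9.22 on arrays 1 to 4. AT2G46910 measured 7.28 to 7.97 and 7.53 to 7.79, and AT2G46850 stayed below 4 on every array. By chromosome, the share of probe sets of a single gene whose sets did not overlap ran from 7.02% on chromosome 1 to 8.18% on chromosome 5, with 8.05% on chromosome 2, which holds NGA1.

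The long-days note divides the wild-type arrays in nearly the same way: arrays 2, 3 and 4, with the note, have low NGA1, and arrays 5, 6 and 7, without it, have high NGA1, so that 6 of the 7 arrays fall alike and the note and the NGA1 level can hardly be told apart. Array 1, without the note and with NGA1 at 5.65, is the exception. No probe set of the 17801 differed with the note in limma at a Benjamini-Hochberg adjusted p under 0.05 (0%). An unadjusted p under 0.05 was found for 290, a share below the 0.05 that such a threshold lets pass by chance. Arrays 1 and 2, which stood apart from the others, fell in different groups of this test, which limits what it can find. NGA1 averaged 5.82 with the note (n = 3) and 9.41 without it (n = 4), values that chose the arrays and get no test. The smallest unadjusted p, 0.000163, belonged to AT3G16780, which averaged 9.76 with the note and 8.24 without it (limma adjusted p = 0.999). With array weights 440 probe sets passed, NGA1 among them. The weights were 0.197, 0.212, 6.53 and 1.103 for arrays 1 to 4 and 2.85, 2.33 and 0.50 for arrays 5 to 7, so the fit leaned on array 3 and gave little weight to array 1, the array that parts the note from the NGA1 division. Without array 1 the test becomes arrays 2 to 4 against the arrays chosen for high NGA1, and the call it then makes is NGA1. Without arrays 1 and 2 NGA1 was likewise the single call, and none of these 3 fits is independent of how the arrays were divided.

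Genes of the clock, light signalling and flowering time, the pathways known to read day length, were therefore described array by array. The clock list had 2 kept members of 26 entries, and the other entries had no probe set of a single gene in the annotation used. GI (AT1G22770), a clock component of the photoperiod pathway, measured 7.43, 7.62 and 6.63 on arrays 5 to 7 and 7.30 to 7.56 on arrays 1 to 4. CCL (AT3G26740), whose transcript cycles with the clock, ran from 9.55 on array 7 to 12.17 on array 1, with 9.68 on array 2. For both the sets overlapped, and array 7 was the lowest of the 7. In the flowering time list, with 3 kept members of 20, AGL24 (AT4G24540), a MADS-box promoter of flowering, did not overlap: it measured 5.07 to 5.28 on arrays 5 to 7 and 5.49 to 6.07 on arrays 1 to 4, a difference of -0.51. SMZ, a repressor of flowering, and FD, the bZIP partner of the florigen, overlapped. HYH, the single kept gene of the light list and a bZIP factor of light signalling, measured 4.40 to 5.36 against 4.82 to 5.998.

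Over all 24 lists of loci, which hold 486 entries, 86 members were kept. Entries without a probe set of a single gene may lie among the 7415 kept probe sets that were given no gene. Leaving out NGA1, which chose the arrays, 9 of the other 85 (10.6%) did not overlap at any size, 5 higher and 4 lower, where 7.55% of all probe sets did so and nothing is read from either share. Of these 9, THI2.1 was past 2-fold. The median difference of the 12 lists, the plastid genome included, with at least 4 kept members lay between -0.22 and 0.25. Among carpel and style regulators, with 8 kept of 24 entries, ALC, a bHLH factor of fruit opening and the transmitting tract, differed by -0.41 and SHI, a zinc-finger factor that promotes style development, by -0.35. ALC measured 7.92 to 8.30 against 8.36 to 8.63 and SHI 4.79 to 5.08 against 5.13 to 5.62. SPT, a close relative of ALC that is needed for carpel margin tissues, measured 6.51 to 6.78 against 6.32 to 6.66 and overlapped, as did SEU, JAG, NUB, INO and CES. The auxin list, with 8 kept of 23 entries, held IAA29, an auxin-response repressor, at 3.70 to 3.96 against 4.02 to 4.78, near the floor of the values. The auxin biosynthesis genes YUC2, YUC4 and YUC6 and the auxin-conjugating WES1 and GH3.3 overlapped.

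Higher without overlap were members of 4 other lists, each by less than 2-fold. APL3, which encodes a large subunit of ADP-glucose pyrophosphorylase, an enzyme of starch synthesis, differed by 0.58, and IRX15-L, which acts in xylan synthesis in secondary walls, by 0.75. HOP3, a co-chaperone of heat shock proteins, differed by 0.49 and LHCB4.3, an antenna protein of photosystem II, by 0.40. Their nga values were 5.62 to 5.89 for APL3 and 5.29 to 6.12 for IRX15-L, above all or most wild-type arrays, and 9.69 to 10.21 for LHCB4.3, where the highest nga value was level with the lowest wild-type array. The jasmonate list had 4 kept members, of which JMT, the enzyme that methylates jasmonate, JAL23, a jacalin-related lectin, and the defensin PDF1.2 overlapped beside THI2.1.

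The tissue was checked against marker lists. Of the tapetum and anther list, A9, SHT and SWEET8 were bright on all 7 arrays, at 11.74 to 12.46, 10.81 to 11.80 and 10.65 to 11.48. Other members were dimmer, with EMS1 at 8.04 to 8.64, SPL at 6.73 to 7.64 and AMS at 6.12 to 7.25. All 6 kept members overlapped between the sets. The list of floral organ identity genes had 2 entries with a probe set of a single gene in the annotation used, and neither was kept. Of markers of other tissue, the seed storage list had 0 entries with such a probe set, the root gene PYK10 lay at 3.97 to 4.35 and the stem wood genes CSLA01 and IRX15-L at 6.27 to 7.95 and 3.99 to 5.62. Both kept stem wood genes, of 8 entries, averaged higher on arrays 5 to 7, by 0.70 with overlap for CSLA01 (6.85 to 7.95 against 6.27 to 7.11) and by 0.75 without overlap for IRX15-L. On the nga arrays CSLA01 measured 7.92 to 9.56, and the part of this tissue in the other differences was not tested. In a whole inflorescence, fewer cells of a type and less RNA per cell cannot be told apart.

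Genes of the pollen list varied among the arrays, and none parted the sets. The 11 kept members of the pollen list had a median difference of -0.14 and all overlapped. Relative to each gene's mean, their median was 0.27 on arrays 1 and 2 and 0.11 on array 5, and -0.30 and -0.33 on arrays 4 and 7. PLIM2b (AT1G01780), an actin-bundling LIM protein of pollen, measured 7.09, 6.89, 6.29 and 6.15 on arrays 1 to 4 and 6.77, 6.32 and 5.87 on arrays 5 to 7. AtVEX1, expressed in the vegetative cell of pollen and not on the list, came near to parting the sets: it measured 7.54, 6.21 and 5.801 on arrays 5 to 7 and 5.805, 5.54, 5.35 and 5.04 on arrays 1 to 4, a difference of 1.08. Quadruple mutant array 1 was higher than every wild-type array for both, at 8.07 and 9.09. For PLIM2b an array of each set, 4 and 7, was lowest.

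Array 7 carried a group of its own. Of 17801 probe sets, it lay at least 2-fold above all 6 other wild-type arrays for 27 and below them for 10. This was more than any other array of its set, but fewer than array 1, with 42 above and 33 below. Array 2 had 4 above and 31 below. AT1G47400 measured 9.93 on array 7 and 3.54 to 4.58 on the other 6, and AT5G05250 measured 7.68 against 4.26 to 4.65. STZ, a zinc-finger repressor also called ZAT10 that responds quickly to stress, measured 5.74 against 4.11 to 4.71. WRKY53, a factor of leaf senescence and defence, measured 5.88 against 4.16 to 4.94, which is less than 2-fold above the next array. The genes named for array 7, and those in the next paragraph, were picked after their values were seen.

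Other transcripts with wide ranges followed other divisions again. ARL, an ARGOS-like gene that promotes organ growth by cell expansion, was high on arrays 3 and 4, at 7.31 and 8.04, and measured 4.85 to 5.75 on wild-type arrays 1, 2, 5, 6 and 7 and 4.81 to 5.19 on the nga arrays. JAL23 measured 3.65 and 4.42 on arrays 1 and 2 and 6.17 and 7.19 on arrays 3 and 4, with 4.84 to 5.87 on arrays 5 to 7. HIS1-3, a linker histone gene that drought induces, was high on arrays 1, 3 and 4 (7.29 to 7.66), lower on arrays 2, 5 and 6 (5.71 to 6.54) and lowest on array 7 (4.95). Of 17801 probe sets, 3643 (20.5%) ranged over at least 2-fold among the 7 arrays, whereas NGA1 ranged over 5.401 on the log2 scale. The plot of transcripts that vary across the division shows 8 of these, none of which parts arrays 5 to 7 from arrays 1 to 4. Against arrays 3 and 4 alone, however, some of them did not overlap with arrays 5 to 7 and differed at least 2-fold. These were ARL (-2.30), HIS1-3 (-1.74), psbK (1.61) and JAL23 (-1.20), while CCL, AT1G47400, STZ and PLIM2b overlapped there too.

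**Figure D5:**
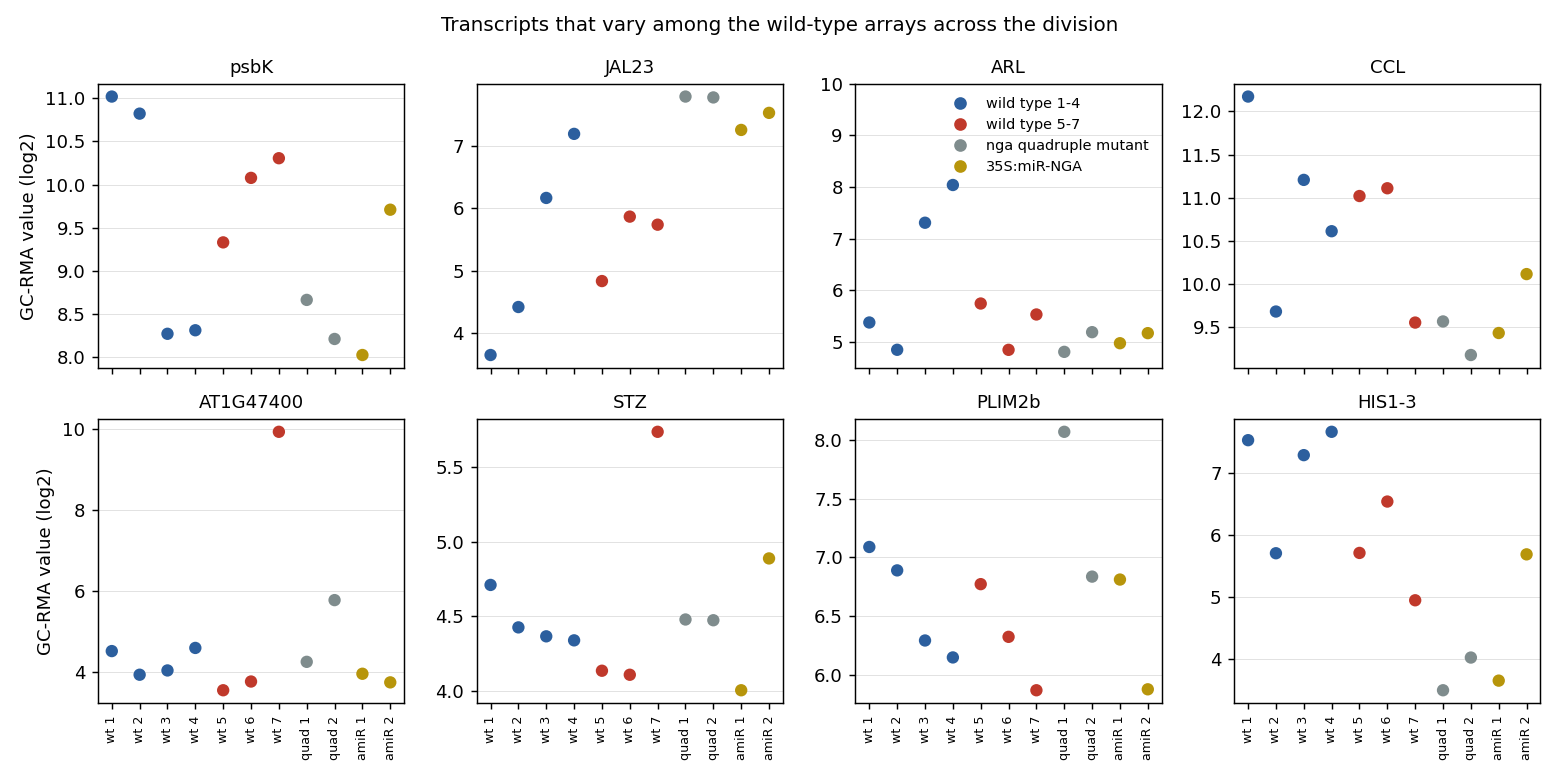
GC-RMA value (log2, vertical axes, which differ between panels and do not start at 0) of 8 genes on each of the 11 arrays (horizontal axis), each point being 1 array. ARL is high on wild-type arrays 3 and 4, AT1G47400 and STZ on array 7, and psbK, a plastid gene of photosystem II, on arrays 1 and 2 (11.02 and 10.82); in every panel the wild-type sets overlap.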

How the data were processed

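RNA of 11 inflorescence samples was hybridised to single-colour Affymetrix ATH1 arrays. The deposited log2 values were made by the authors with GC-RMA, which corrects background by probe sequence and normalizes the arrays together; R 2.7.2 and Bioconductor 2.2 were used, per the submitters' processing notes and the design text. Dim transcripts are pulled towards a floor by it, which compresses their differences. Probe-level intensities were not analysed here, and 0 value columns lacked a sample.

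After removal of 64 control rows from 22810, 17801 of 22746 probe sets were kept, at 4 or more on at least 3 of the 7 wild-type arrays. Platform annotation and RefSeq (TAIR10.1, names and gene order only) gave a single gene for 9986 of these, several for 357 and none for 7415; 43 matched no RefSeq gene and 1317 had a symbol. Genes in lists with several probe sets were represented by the brightest.

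Since a measured value divided arrays 5 to 7 from 1 to 4, that division got no test. The note was tested with limma 3.58.1 in R 4.3.3 (lmFit and eBayes, two-sided, Benjamini-Hochberg over the probe sets kept, threshold 0.05), checked on simulated data. Labels do not say whether replicates were separate plantings, so p-values reflect only how these samples spread, possibly for technical reasons; no columns were identical. The number of arrays limits precision.

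Members and lists were chosen with earlier results of these data known. Named by rule were NGA1 to NGA4, separated single genes that also differed 2-fold without arrays 1 and 2 (up to 12 with a symbol and 6 known by locus in each direction), up to 4 separated members of each list, up to 6 genes past the note test in each direction and the 5 loci on either side of NGA1. All other genes were named after their values were seen. Alternatives covered filter, scaling, fold limit, array weights, the variance trend, a fit of all 11 arrays and each array left out. Promoter motifs were not searched.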

Additional observations from a re-analysis of the deposited data

Results flagged for a closer look

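For 96 measures over the 7 wild-type arrays (the genes named by rule, the kept list members and 5 array measures), the distance of the highest or lowest array from its neighbour was set against the whole range with Dixon's test, which chance passes for about 1 in 20 groups. It was passed by 8. Array 7 was lowest for GI, at 6.63 against 7.30 for the next array, and for the ubiquitin 3-prime minus 5-prime difference, at 1.17 against 1.298, and highest for STZ (ZAT10), at 5.74 against 4.71. Array 1 was highest for COR47, a cold-induced dehydrin gene, at 9.95 against 9.15, and lowest for JMT, at 5.78 against 7.05. Array 2 was highest for the pollen genes AGL30, at 6.03 against 5.45, and PLIM2a, at 5.97 against 4.94. Array 5 was highest for LTI30, a cold-induced dehydrin gene, at 5.97 against 4.94.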

How the results depend on the processing

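No paired analysis was possible because the comparisons lie within the wild-type arrays, which share no replicate number. The NGA1 difference was 4.84 with median centring, 4.85 with quantile normalization, 4.75 without arrays 1 and 2, and 4.73 to 4.98 with each array left out. All 100 recomputed differences of the 10 genes named by rule moved by less than the SD within the sets. Leaving out 1 array cannot move a difference by as much as that SD, so no stability is read from those values. AT4G23680 was no longer separated with either scaling or without array 5 or 6. The same held for AT2G32150 without array 1 or 3, and for THI2.1 without array 1, array 7, or arrays 1 and 2. The count of separated probe sets, 21, was 21 with no filter, 20 with a floor of 5, 20 with median centring (8 higher and 12 lower, against 13 and 8), 25 with quantile normalization (14 and 11), 70 without arrays 1 and 2, 173 at 1.5-fold, 1344 with no limit and 1 at 4-fold, and 19 to 95 with each array left out (19 without array 1, 95 without array 7). The fold limits set the count themselves, and sets with fewer arrays meet the rule of no overlap more easily. Counts with arrays left out are therefore not on the same footing as 21. Any further cause of these shifts was not tested. The limma count for the note, 0, was 440 with array weights (274 higher and 166 lower with the note) and 1 without arrays 1 and 2, and 0 to 1 with each array left out. The single calls were NGA1. It was 0 with no filter, a floor of 5, either scaling, an intensity trend and all 11 arrays, with 248 to 402 unadjusted p under 0.05. Places of an array at a 4-fold limit rest on 1 or 2 probe sets: array 2 lay nearer to arrays 5 to 7 for 100% (of 2 chosen without arrays 1 and 2, and of 1 chosen without array 2), and arrays 6 and 7 for 0% of 1. For 8 of 13 placings no probe set was left at that limit. Values near 4 lie at the floor, where differences can hardly be seen.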

Other observations

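Plastid-encoded transcripts differed among the wild-type arrays in more than a single direction. The neighbouring photosystem II genes psbK and psbI were high on arrays 1 and 2, at 11.02 and 10.82 for psbK and 10.43 and 10.49 for psbI, low on arrays 3 and 4, at 8.27 and 8.31 and at 8.10 and 8.22, and between these on arrays 5 to 7, at 9.33 to 10.31 and 9.23 to 9.95. The ATP synthase gene atpH was lowest on array 1, at 5.58, against 7.15 to 8.34 on the others, and so were ycf4, at 5.68 against 7.28 to 8.54, and the photosystem I gene psaA, at 5.21 against 6.12 to 7.60. Of the 66 plastid probe sets kept, 3 did not overlap between arrays 5 to 7 and arrays 1 to 4, which is 4.55%, and 0 were separated 2-fold. The cytochrome complex gene petG came closest, at 5.01 to 6.15 against 3.75 to 5.05.

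Array 1 was also alone in PAP85, a vicilin-like seed storage gene, at 7.39 against 3.86 to 5.83 on the other wild-type arrays. SWEET10, a sugar transporter gene, ran from 6.76 on array 2 to 10.15 on array 7, with arrays of both sets at either end. AT1G12010 ran from 4.49 on array 7 to 9.93 on array 1.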
